A study of Rattus norvegicus with 48 samples.

Results

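miR-129 is a brain-enriched microRNA (miRNA), and its 5 names in the rat annotation were followed over 48 small RNA libraries of the amygdala and the ventral striatum. The members were taken by name from the deposited table: the mature names miR-129-5p, miR-129-1-3p and miR-129-2-3p and the precursor names mir-129-1 and mir-129-2, 5 of the 1063 names listed. Lines that shared a name were added up. Each library came from RNA pooled over 3 Long Evans rats of one sex, prenatal exposure and housing, 42 days old at tissue collection. Dams had been injected with ethanol or with saline, so the control offspring carry a saline injection, and the offspring were housed after weaning under a socially enriched or a non-enriched condition. Exposure and housing were crossed, which gave 4 groups of 6 libraries in each region, 3 from female and 3 from male pools. Both regions were taken from the same rats. The pools limit the design: a value is an average over rats, and the spread between libraries is a spread between pools.

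A miRNA is cut from a hairpin precursor, and either arm of the hairpin, called 5p or 3p, can be loaded onto Argonaute and lower the translation and stability of mRNAs that pair with its seed (bases 2 to 8). miR-129 is made from a pair of loci in mammals and is abundant in neurons. miR-129-5p is known for its part in homeostatic synaptic downscaling, in which neurons weaken their excitatory synapses after a long rise of activity, and for repressing translation of the potassium channel Kv1.1 in dendrites.

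The sequences show what the names can and cannot tell apart, and they were taken from RefSeq (GRCr8), where 3 of the 3 mature names were matched. The arms are printed 5′ to 3′ with the seed in capitals.
miR-129-5p: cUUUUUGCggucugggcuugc
miR-129-1-3p: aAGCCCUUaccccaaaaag
miR-129-2-3p: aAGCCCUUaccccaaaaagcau
The 5p arm of 21 bases is the same from both loci. The 3p name of the first locus has 19 bases and equals the start of the 22 bases of the 3p name of the second locus, so both 3p names share 1 seed. No other name among the 693 mature rat names of the reference shares either seed.

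The hairpins, with both arms in capitals, are shown because they carry the only bases that separate the loci.
mir-129-1: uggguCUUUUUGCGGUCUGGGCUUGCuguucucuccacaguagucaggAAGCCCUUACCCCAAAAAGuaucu
mir-129-2: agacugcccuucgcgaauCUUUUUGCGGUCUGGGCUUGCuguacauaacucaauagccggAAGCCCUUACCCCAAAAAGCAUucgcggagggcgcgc
mir-129-1 (72 bases) lies on the forward strand at chr4:58589711-58589782 (GRCr8), inside the long non-coding RNA gene LOC120102250, between the protein-coding genes Snd1 and Lep. mir-129-2 (97 bases) lies on the reverse strand at chr3:100657390-100657486 (GRCr8), between Hsd17b12 and Ttc17, and overlaps no other annotated gene. From the start of the 5p arm the hairpins share 24 bases, and before it 1 base, so a 5p read inside this stretch carries no base that assigns it to a locus. In the 3p arm the stretch of hairpin 1 that matches miR-129-2-3p differs from it by C20U, counted from 1 at the 5′ end of the arm (miR-129-2-3p has the first base).

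Depth was recovered from the RPM (reads per 1000000) that 1 read is worth in a library, and mature reads ranged from 363141 to 1370407. The median was 855220 for amygdala and 1031168 for ventral striatum libraries. The amygdala libraries differed in the summed level of 7 miRNAs of choroid plexus and ciliated cells (miR-204-5p, miR-211-5p, miR-448-3p, miR-449a-5p, miR-34b-5p, miR-34c-5p and miR-1298). This sum ran from 3675 to 145266 RPM in amygdala libraries, while ventral striatum libraries held 4572 to 12352 RPM. It rested mostly on miR-204-5p, with medians of 13316 RPM in amygdala and 5637 RPM in ventral striatum libraries. miR-34c-5p had the next largest medians, 3047 and 584 RPM in the same order. In the amygdala 13 of 24 libraries lay above the highest ventral striatum library, 4 of the 6 ethanol-exposed non-enriched pools and 3 of the 6 pools of each other group. miR-449a-5p and miR-34b-5p were each at 0 in 1 amygdala library, and no other marker was at 0 in a library. The sum of 5 neuronal miRNAs (miR-124-3p, miR-128-3p, miR-138-5p, miR-9a-5p and miR-218a-5p) had medians of 44349 RPM in these 13 libraries and 44931 RPM in the other 11 amygdala libraries. In the ventral striatum the median was 40756 RPM. Among its members miR-218a-5p was higher and miR-138-5p lower in the amygdala, so a similar sum does not show a similar share of neurons.

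Both miR-129 arms were among the more abundant miRNAs of both regions. miR-129-5p ranged from 334 to 823 RPM over amygdala libraries (median 522) and from 441 to 856 RPM over ventral striatum libraries (median 612), which placed its mean at rank 104 and rank 97 of 612 mature names. miR-129-2-3p, the 3p arm of the second locus, ranged from 204 to 615 RPM (median 456) and from 423 to 602 RPM (median 477) in the same order. The regions overlapped widely for both arms, and the lowest values of both were in amygdala libraries.

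The name miR-129-1-3p, the annotated 3p arm of the first locus, was close to absent. It was above 0 in 3 of 48 libraries, all 3 from control ventral striatum: 2 reads (2.04 RPM) and 1 read (1.12 RPM) in non-enriched pools and 1 read (0.821 RPM) in an enriched pool. A count of 0 allows up to 3 reads, which is 2.19 to 8.26 RPM depending on the library. The name was too rare to be tested. The methods describe a gel window for the small RNAs that begins above the 19 bases of this name, and its part in the low values was not tested.

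On the scale of the precursor names, which add up to 1000000 by themselves and are not compared here with mature values, mir-129-2 was the larger of the pair in every library. It ranged from 437 to 1046 RPM over amygdala libraries (median 780.3) and from 672 to 1038 RPM over ventral striatum libraries (median 800.5). mir-129-1 ranged from 92.6 to 261 RPM (median 160.0) and from 149 to 334 RPM (median 212) in the same order. As a share of both precursors, mir-129-1 held 13.6% to 25.8% over the 48 libraries.

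**Figure D1:**
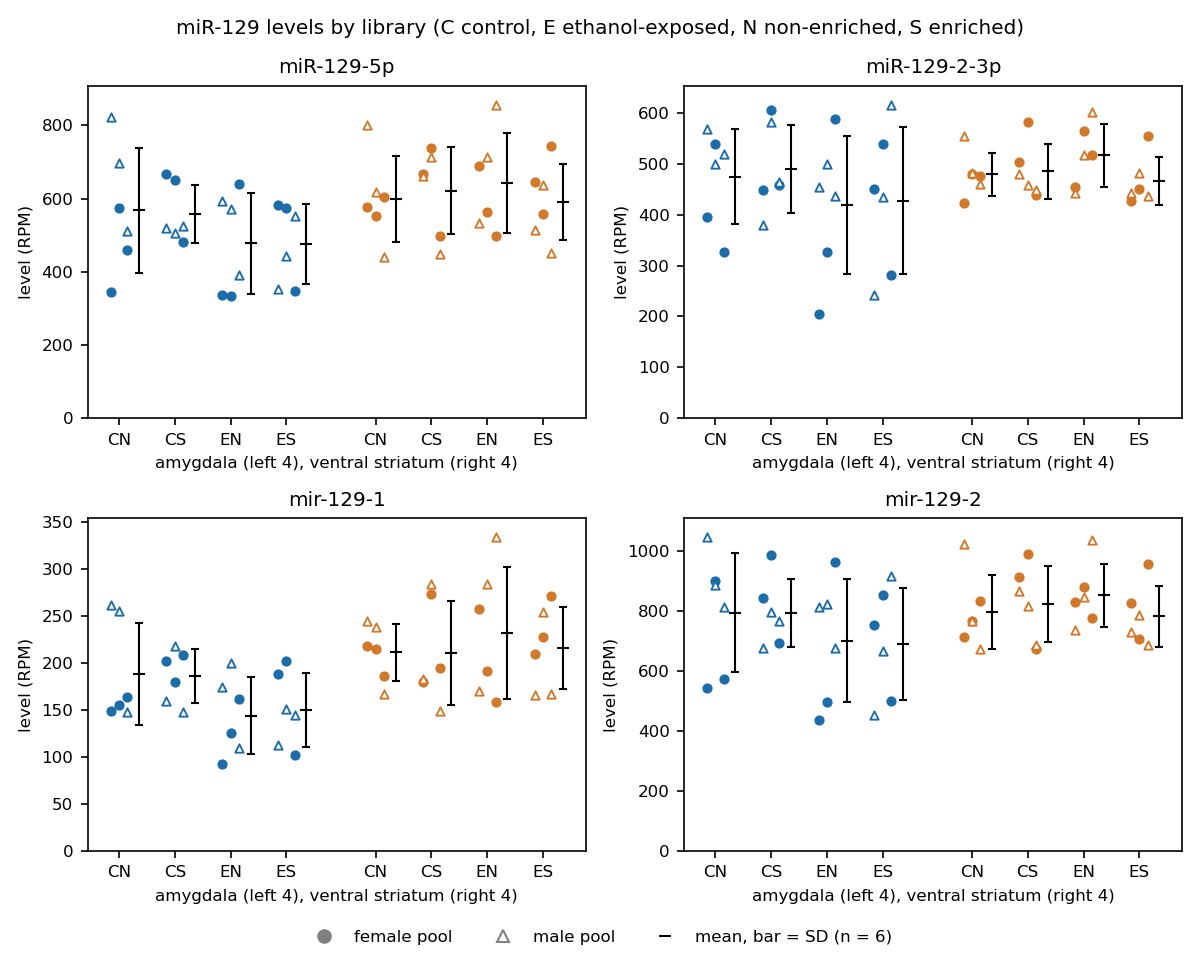
Level in RPM (y axis) of miR-129-5p, miR-129-2-3p, mir-129-1 and mir-129-2 in each library, by region and treatment group on the x axis (C control, E ethanol-exposed, N non-enriched, S enriched). Filled circles are female pools, open triangles male pools, and black marks the mean with the SD of 6 libraries. The groups overlap within each region for every name, and mir-129-1 sits lowest in the amygdala of ethanol-exposed rats.

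The table lists miR-129-5p on 2 lines, one beside each 3p name, and the precursor values follow these lines. The line beside miR-129-2-3p had a median of 382 RPM over the 48 libraries, and the line beside miR-129-1-3p a median of 172 RPM. Both lines were whole numbers of reads in 48 of 48 libraries, within 0.01 of a read, although the sequence of the arm is the same. How the authors divided reads that fit both loci is not given in the sources used here. The 5p line beside miR-129-1-3p amounted to a median of 79.9% of the reads of mir-129-1 (range 69.0% to 89.9%). The remaining reads of mir-129-1, beyond its 5p line and its 3p name, came to a median of 20.1% (range 10.1% to 31.03%). They were 9 to 88 reads in a library, while miR-129-1-3p itself had at most 2. Whether they include 3p reads longer than this name was not tested. For mir-129-2 the reads beyond both arms came to 3.23% to 7.604%, and miR-129-2-3p alone matched a median of 51.9% of its reads. mir-129-1 was thus mostly 5p reads, and mir-129-2 was divided between the arms.

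Region was compared in a fit to all 48 libraries, taken as independent although the same rats supplied both regions. mir-129-1 and miR-129-5p were lower in the amygdala than in the ventral striatum, and the differences of the other names did not pass the test. mir-129-1 averaged 167 ± 44.2 RPM over amygdala and 217 ± 49.2 RPM over ventral striatum libraries (SD, n = 24 each), a difference of -0.39 (SE 0.10) on the log2(RPM + 1) scale with a limma adjusted p of 0.0031. miR-129-5p averaged 520 ± 128 RPM and 614 ± 113 RPM, a difference of -0.26 (SE 0.09) with a limma adjusted p of 0.033. For miR-129-2-3p the difference was -0.15 (95% interval -0.34 to 0.04, limma adjusted p = 0.244), and for mir-129-2 it was -0.16 (95% interval -0.33 to 0.02, limma adjusted p = 0.172). Of 942 names tested, 278 (29.5%) passed an adjusted p of 0.05, 198 names (21%) lower in the amygdala. Of the 4 miR-129 names tested 2 passed, both lower. These 2 are not separate calls, since the 5p line beside miR-129-1-3p is part of miR-129-5p and matched most reads of mir-129-1. The summed level of 3 oligodendrocyte miRNAs (miR-219a-5p, miR-219a-2-3p and miR-338-3p, none at 0 in a library) also stood lower in amygdala libraries, with 4671 to 15452 RPM (median 7089) against 6218 to 15920 RPM (median 10324), and its part in the miR-129 differences was not tested. Each line of miR-129-5p was also fitted alone: the line beside miR-129-1-3p had a difference of -0.42 (limma adjusted p = 0.00282) and the line beside miR-129-2-3p a difference of -0.19 (limma adjusted p = 0.1801). The whole-table calls themselves move with the scaling, since 80 of the 278 names were higher in the amygdala as deposited and 109 of 228 after median-ratio rescaling, under which miR-129-5p missed the threshold (-0.19, limma adjusted p = 0.0808).

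**Figure D2:**
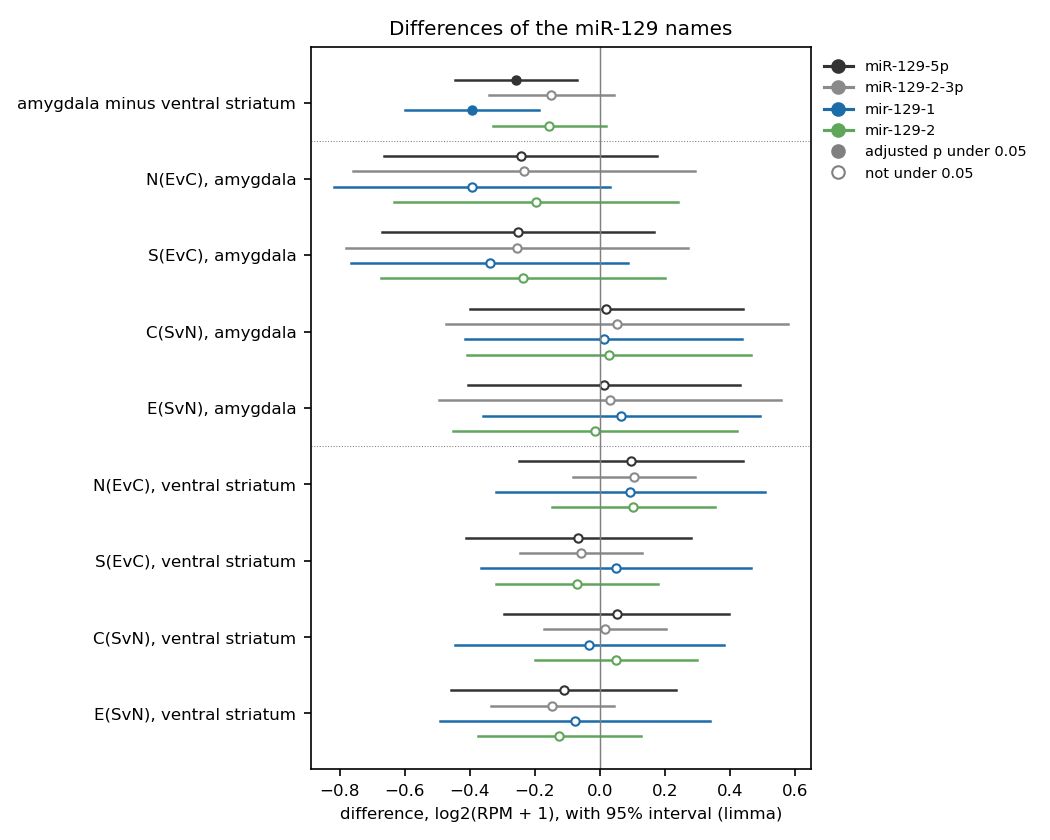
Difference on the log2(RPM + 1) scale (x axis) with its 95% interval for the 4 tested miR-129 names, for the regions (top) and for the 4 treatment contrasts in each region (rows). Filled points passed an adjusted p of 0.05: mir-129-1 (-0.39) and miR-129-5p (-0.26) between regions and no name in any treatment contrast.

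The region difference moved with the choroid plexus markers. In the 13 amygdala libraries above the ventral striatum range, miR-129-5p had a median of 443 RPM (334 to 666), and in the other 11 amygdala libraries a median of 581 RPM (482 to 823). mir-129-2 had medians of 666 RPM (437 to 842) and 888 RPM (694 to 1046) in the same libraries. mir-129-1 had medians of 148 RPM (92.6 to 202) and 188 RPM (145 to 261). Within the amygdala the highest value of each of these names was in a library poor in the markers, and the ranges of both sets overlapped. Over the 24 amygdala libraries, which share depth and scaling with the markers, the log2 level of the 4 names had Pearson correlations with the log2 marker sum of -0.67 to -0.71, against -0.07 to 0.34 in the ventral striatum. All values are shares of a fixed total, so more of one abundant miRNA leaves less for the others together. Its part in these correlations was not tested.

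The fit without these 13 libraries was chosen after the values were seen and also left out sex. Its region difference was -0.01 for miR-129-5p (limma adjusted p = 0.997) and -0.16 for mir-129-1 (limma adjusted p = 0.368). miR-129-2-3p and mir-129-2 then had values above 0 (0.13 and 0.11, limma adjusted p = 0.112 and 0.306). With the marker sum as a covariate instead, miR-129-5p had a difference of -0.12 (limma adjusted p = 0.337) and mir-129-1 of -0.25 (limma adjusted p = 0.0587). Fewer cells that make miR-129 and less miR-129 per cell cannot be told apart in tissue libraries.

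**Figure D3:**
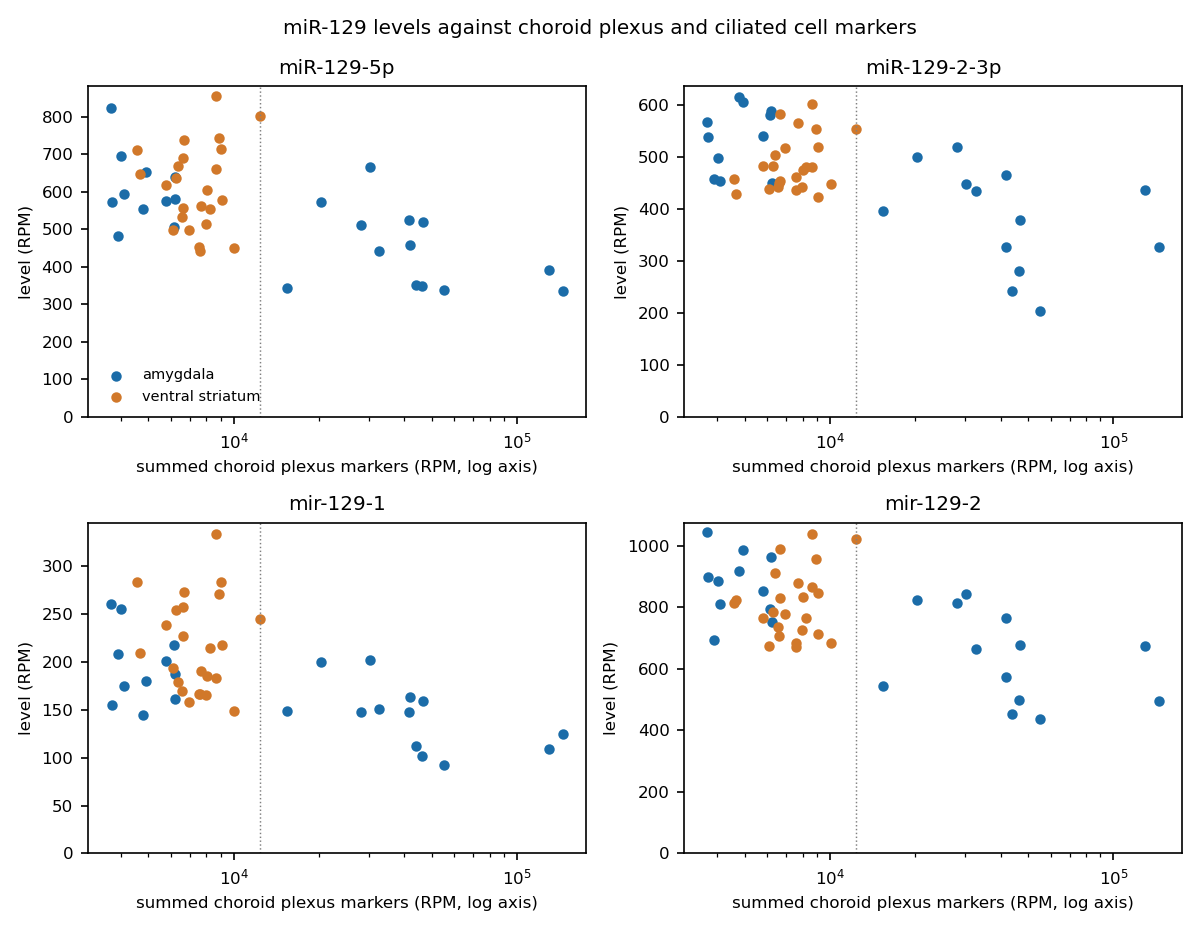
Level in RPM (y axis) of the 4 tested miR-129 names against the summed level of 7 choroid plexus and ciliated cell miRNAs (x axis, log scale), 1 point a library, blue for amygdala and orange for ventral striatum. The dotted line is the highest ventral striatum sum, 12352 RPM, and the 13 amygdala libraries to its right hold the lowest miR-129 values.

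The ratio of the precursors is taken within a library, and the scaling enters its log2 only through the 1 RPM added to each value. With 0.1 or 10 RPM added instead, the region difference of this log2 ratio was -0.24 or -0.22. mir-129-1 made up 18.4% ± 2.82 of both precursors over amygdala and 20.98% ± 2.91 over ventral striatum libraries (SD, n = 24 each). The log2 ratio of mir-129-1 to mir-129-2 was lower in the amygdala by 0.24 (-2.16 ± 0.28 against -1.92 ± 0.25, p = 0.0033 in a two-sided permutation test with 100000 resamples, adjusted p = 0.030 over the 9 comparisons of this ratio). This test shuffled the region over the 48 libraries as if independent, without regard to sex, treatment or the rats that both regions share. The ranges overlapped, from -2.66 to -1.73 for amygdala and from -2.34 to -1.52 for ventral striatum libraries. Without the 13 libraries high in choroid plexus markers the difference was of the same size (-0.25, unadjusted permutation p = 0.0206, adjusted p = 0.186 over 9 comparisons). Of the 48 fits that left out 1 library, 11 missed the threshold, with adjusted p up to 0.0587. Because reads inside the stretch that both loci share were assigned by an unstated rule, a shift between the loci and a shift in that assignment cannot be told apart. In the 8 treatment contrasts the ratio differed by -0.20 to 0.12, with exact permutation p of 0.273 or more.

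**Figure D4:**
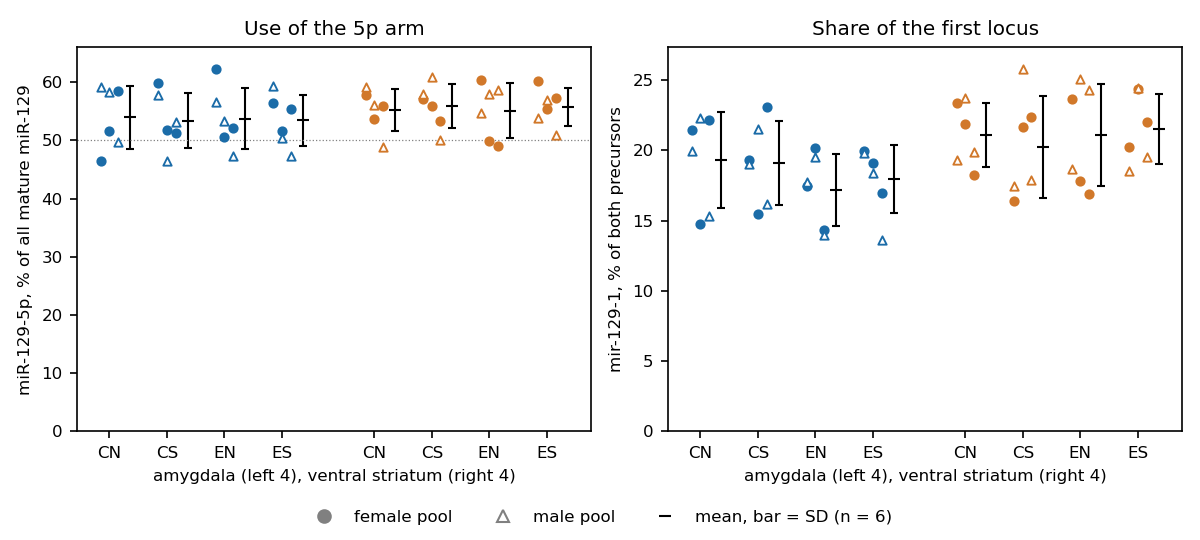
Left, miR-129-5p as a percentage of all mature miR-129 (y axis); right, mir-129-1 as a percentage of both precursors (y axis), in each library by region and treatment group (x axis). Circles are female and triangles male pools, and black marks the mean with the SD of 6 libraries. The mean 5p share is 53.4% to 53.9% in the amygdala groups and 55.1% to 55.9% in the ventral striatum groups, and the libraries of both regions overlap.

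Both arms of miR-129 were present in similar amounts. miR-129-5p made up 54.6% ± 4.22 of the mature miR-129 values (SD, n = 48), with 46.5% as the lowest and 62.3% as the highest library. It exceeded miR-129-2-3p in 40 of 48 libraries, by 0.26 ± 0.25 on the log2 scale. If only the 5p line beside miR-129-2-3p is set against miR-129-2-3p, the order turns, with a log2 ratio of -0.28 ± 0.28 and 7 of 48 libraries above 0, so the balance of the arms depends on which locus the 5p reads are credited to. Between regions the log2 ratio of miR-129-5p to miR-129-2-3p differed by -0.11 (SE 0.08, 95% interval -0.27 to 0.06, limma adjusted p = 0.341), while 17 of 77 pairs of arms (22.1%) passed the threshold. In the 8 treatment contrasts the ratio differed by -0.03 to 0.04, and the widest 95% interval ran from -0.41 to 0.35.

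N(EvC) compares ethanol-exposed with control pools under non-enriched housing, and no miR-129 name passed the test in it. In the amygdala, mir-129-1 had a median of 143 RPM (92.6 to 199) in ethanol-exposed and 159 RPM (147 to 261) in control non-enriched pools. The groups overlapped, with 3 of the 6 ethanol-exposed pools below the lowest control. The difference was -0.39 (SE 0.20, 95% interval -0.82 to 0.03, unadjusted p = 0.0677, limma adjusted p = 0.842), and a two-sided exact permutation test on mean RPM gave p = 0.149. The study had listed mir-129-1 as lower in this comparison, from these same libraries together with microarrays of the same pooled RNA. Its rule was an uncorrected p cutoff on each platform, which is looser than the adjusted threshold used here. The value of mir-129-1 here is therefore not independent evidence.

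The other names pointed the same way with smaller values, and so did the median of all 910 names (-0.08). The precursor values follow the lines of the arms, so the names are not independent of each other. miR-129-5p had medians of 482 RPM (334 to 638) and 542 RPM (344 to 823) and a difference of -0.24 (SE 0.20). miR-129-2-3p had medians of 445 RPM (204 to 588) and 508 RPM (326 to 568) and a difference of -0.23 (SE 0.25). mir-129-2 had a difference of -0.20 (SE 0.21). In this comparison 0 of 910 names passed an adjusted p of 0.05 with limma. An unadjusted p under 0.05 was reached by 41 names (4.51%), 33 of them below 0, and by 0 of the 4 miR-129 names. After median-ratio rescaling 15 names were above 0 and 17 below 0 at that threshold. The marker sum of choroid plexus was highest in ethanol-exposed non-enriched pools (median 37736 RPM, against 9708 RPM in control non-enriched pools), and with it as a covariate the difference of mir-129-1 was -0.20 (limma adjusted p = 1.0). Without the libraries high in these markers, with 2 ethanol-exposed against 3 control pools, the difference was -0.38 (limma adjusted p = 0.917).

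Ethanol exposure under enrichment, S(EvC), gave similar values in the amygdala. mir-129-1 had medians of 148 RPM (102 to 201) in ethanol-exposed and 191 RPM (148 to 218) in control pools, which overlapped, and a difference of -0.34 (SE 0.20, unadjusted p = 0.111, exact permutation p = 0.0974). The differences of the other 3 names lay between -0.25 and -0.24, and the background was 35 of 910 names (3.85%) at an unadjusted p under 0.05. The test of N(EvC) minus S(EvC), which asks whether the ethanol difference depended on housing, gave -0.05 to 0.04 for the 4 names, with a standard error of 0.28 to 0.35 and again 3.85% of names in the background.

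In the ventral striatum the ethanol differences of the 4 names lay between 0.09 and 0.10 in N(EvC) and between -0.07 and 0.05 in S(EvC), with 95% intervals that all included 0. mir-129-1 had medians of 224 RPM (158 to 334) in ethanol-exposed and 216 RPM (166 to 245) in control non-enriched pools. The background was 19 of 933 names (2.04%) in N(EvC), 21 (2.25%) in S(EvC) and 24 (2.57%) in their difference. Whether N(EvC) differed between the regions was tested directly: mir-129-1 had a difference of -0.49 (SE 0.29, unadjusted p = 0.0964, limma adjusted p = 1.0), and 33 of 942 names (3.5%) had an unadjusted p under 0.05.

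Social enrichment was compared with non-enriched housing, and no miR-129 name passed the test. In the amygdala the differences lay between 0.01 and 0.05 in control rats, C(SvN), and between -0.01 and 0.07 in ethanol-exposed rats, E(SvN), where the background was 24 of 910 names (2.64%) in each. The 95% intervals of the 4 names lay within -0.50 and 0.58, and those bounds belong to miR-129-2-3p, the name with the widest intervals. In the ventral striatum the largest difference of the 4 was that of miR-129-2-3p in E(SvN), with medians of 446 RPM (427 to 554) in enriched and 517 RPM (442 to 602) in non-enriched ethanol-exposed pools. The groups overlapped and the difference was -0.15 (SE 0.09, unadjusted p = 0.120, limma adjusted p = 1.0). The background there was 17 of 933 names (1.82%) in E(SvN) and 36 (3.86%) in C(SvN). Over the 8 treatment contrasts 0 of 32 exact permutation tests on mean RPM had p under 0.05, the smallest being 0.0974, and no pair of groups was fully apart.

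No miR-129 name passed the test between the sexes. Females minus males differed by -0.17 to -0.10 in the amygdala (limma adjusted p = 0.988) and by -0.00 to 0.04 in the ventral striatum (limma adjusted p = 1.0). The background was 38 of 910 names (4.18%) and 27 of 933 (2.89%) at an unadjusted p under 0.05.

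miR-129-5p belongs with other miRNAs known for synaptic scaling and activity-dependent plasticity, and 11 of these were followed as a list. Between regions 4 of the 11 passed the adjusted threshold, where 29.5% of all names passed, and 3 of the 4 were lower in the amygdala, where 21% of all names were called lower. These shares are near the background. The median difference of the list was -0.17, against -0.08 over all 942 names. miR-218a-5p was higher in the amygdala by 0.50 (SE 0.10), and miR-138-5p (-0.25, SE 0.08), which limits the size of dendritic spines, miR-181a-5p (-0.17, SE 0.06) and miR-186-5p (-0.15, SE 0.03) were lower. miR-132-3p, an activity-induced miRNA, had a difference of -0.30 (unadjusted p = 0.0401, limma adjusted p = 0.104). In the treatment contrasts 0 of the 11 passed the adjusted threshold in either region. Only miR-218a-5p reached an unadjusted p under 0.05, in the amygdala: 0.45 in S(EvC), -0.38 in C(SvN) and -0.62 in N(EvC) minus S(EvC), with limma adjusted p of 0.878, 1.0 and 0.957. The background at that threshold was 3.85%, 2.64% and 3.85% of 910 names in the same order, so 1 of 11 in a contrast is no result about the list.

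The names whose levels ran most like those of miR-129 over the 48 libraries were found among 586 other names with a mean of at least 10 RPM. For miR-129-5p they were miR-153-3p (Pearson r = 0.81), its precursor mir-153 (0.80) and miR-323-3p (0.77). As deviations from the means of the 16 groups of region, sex and treatment they were miR-153-3p (0.83), mir-153 (0.83) and miR-132-5p (0.79). For miR-129-2-3p they were miR-412-5p (0.78), miR-135b-5p (0.77) and mir-135b (0.77), and as deviations miR-873-5p (0.78), mir-135b (0.75) and miR-135b-5p (0.75). Values of a library share its scaling and its choroid plexus share, and no test was made of these correlations. Within miR-129, the log2 level of mir-129-1 correlated with that of mir-129-2 by 0.73 over the amygdala and 0.61 over the ventral striatum libraries (24 each), and with the 5p line beside miR-129-1-3p, which holds most of its reads, by 0.98 in both.

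**Figure D5:**
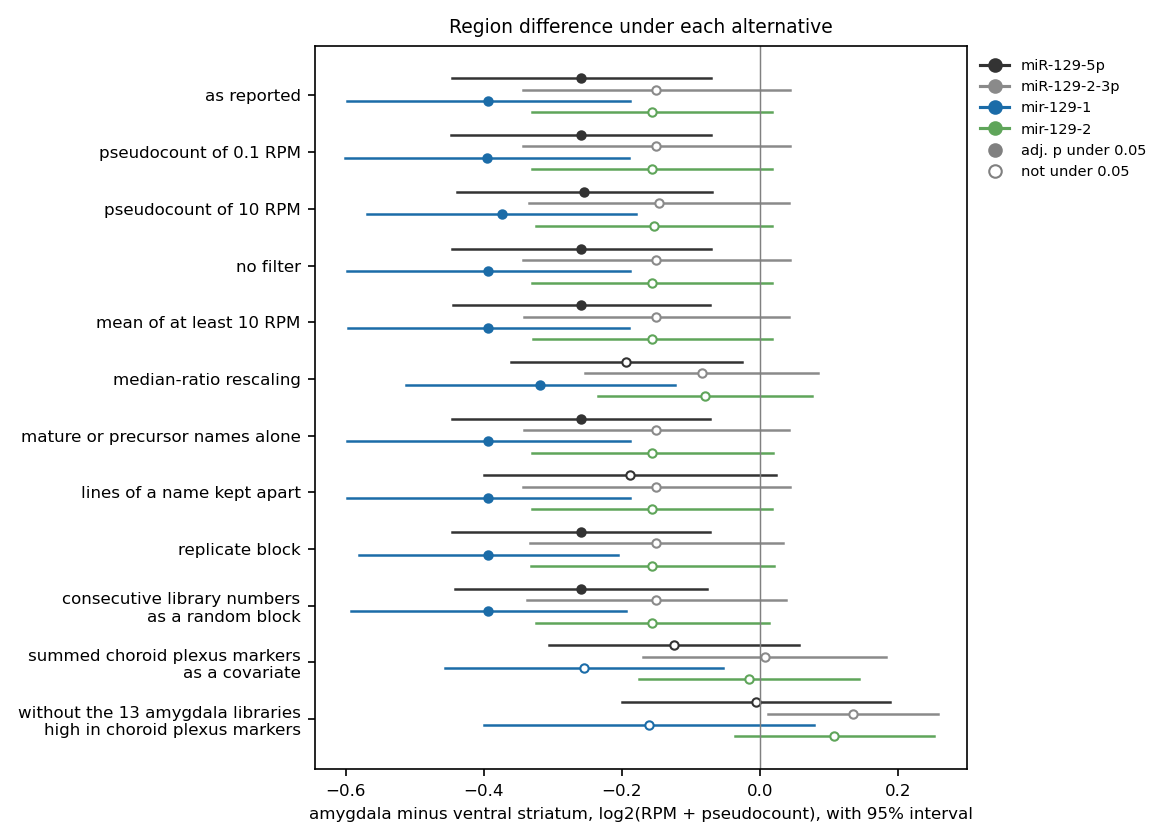
Amygdala minus ventral striatum difference of the 4 tested miR-129 names on the log2 scale (x axis) with its 95% interval, as reported and under each alternative (rows). Filled points passed an adjusted p of 0.05; mir-129-1 keeps its filled point except under both choroid plexus alternatives, and miR-129-2-3p and mir-129-2 lie above 0 without the 13 libraries.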

How the data were processed

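Per the study's methods, small RNAs of each pool were gel-purified, sequenced and quality-trimmed, and the authors aligned them to Rn5 with Bowtie and quantified them in Partek against miRBase. The deposited signal per name is described as RPM; mature names and precursor names were scaled apart, each kind summing to 1000000 in a library. Low values were whole reads for 92.3% to 99.6% of mature and 82.1% to 89.8% of precursor lines of a library (within 0.01 of a read), so no count test was used. The limit of 3 reads that a 0 allows covers counting error alone.

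The 1129 lines were summed to 1063 names. A name entered a fit when it exceeded 0 in 6 or more of 24 libraries. Fits used limma 3.58.1 in R 4.3.3 (log2 of RPM plus 1, eBayes, with trend for names, two-sided, Benjamini-Hochberg over all names). Cells were of sex, exposure and housing (and region). Sex was left out in the fits without the amygdala libraries high in choroid plexus markers. Log2 ratios of arms were fitted likewise over pairs with means of at least 10 RPM. Exact permutation tests, over 924 splits of 6 against 6, used numpy 2.4.6, and tables and plots used Python 3.11.15, pandas 2.3.3, scipy 1.17.1 and matplotlib 3.10.9. The tests were tested on simulated data. Named were all miR-129 members, the 3 names most correlated with each tested mature member, and list miRNAs at an unadjusted p under 0.05. Members and lists were chosen with earlier results of these data known. Alternatives were other pseudocounts, filters, scaling, blocks, lines kept apart, unlogged values and each library left out, and, chosen after seeing the data, the choroid plexus sum as a covariate and the amygdala libraries high in it left out. Region p-values treat libraries as independent, although both regions came from the same rats. The library numbers in the labels put 1 library of each region next to each other in 24 of 24 consecutive pairs. Each pair had the same sex, exposure and housing. Whether it pooled the same individual rats is not given in the sources used here. With these pairs as a random block the region calls of miR-129-5p and mir-129-1 were kept (limma adjusted p = 0.0272 and 0.00224). The log2 ratio of the precursors was not tested with these pairs.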

Additional observations from a re-analysis of the deposited data

How the results depend on the processing

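With the replicate block the region difference had a limma adjusted p of 0.0304 for miR-129-5p and 0.00137 for mir-129-1, and the block changed no call for a miR-129 name, while it gave 289 calls over all names in place of 278. The libraries share only a number: deviations of same-numbered libraries had a median correlation of 0.0032 over 84 amygdala pairs (39 over 0.1) and -0.0021 over 84 ventral striatum pairs (32 over 0.1). Of the 801 other values recomputed, 758 kept their direction and side of the threshold. No treatment contrast of a miR-129 name passed an adjusted p of 0.05 under any alternative. An unadjusted p under 0.05 was reached by 9 of 2099 alternative values within a region, ratios and fits without 1 library included. The values that did not keep their direction or side of the threshold follow, on the log2 scale unless given in RPM. Their causes were not tested.

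After median-ratio rescaling, miR-129-2-3p had -0.040 in E(SvN), amygdala. After median-ratio rescaling, miR-129-5p had -0.058 in E(SvN), amygdala, -0.19 between regions and -0.00015 in female minus male, ventral striatum. After median-ratio rescaling, mir-129-1 had -0.0070 in E(SvN), amygdala and 0.022 in N(EvC) minus S(EvC), amygdala. From the line beside miR-129-2-3p alone, miR-129-5p had -0.0042 in E(SvN), amygdala and -0.19 between regions. In a three-way model on unlogged values, miR-129-5p had -9.50 RPM in C(SvN), amygdala, -2.23 RPM in E(SvN), amygdala, -7.27 RPM in N(EvC) minus S(EvC), amygdala and -4.11 RPM in female minus male, ventral striatum. In a three-way model on unlogged values, mir-129-1 had -2.55 RPM in C(SvN), amygdala. In a three-way model on unlogged values, mir-129-2 had -0.98 RPM in C(SvN), amygdala.

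With the choroid plexus sum as a covariate, chosen after seeing the data, miR-129-2-3p had -0.11 in E(SvN), amygdala, 0.0047 in N(EvC), amygdala and 0.0067 between regions. With the covariate, the log2 ratio of the arms had 0.0053 in E(SvN), amygdala and -0.0013 in S(EvC), amygdala. With the covariate, miR-129-5p had -0.11 in E(SvN), amygdala and -0.12 between regions. With the covariate, mir-129-1 had -0.054 in E(SvN), amygdala, 0.13 in N(EvC) minus S(EvC), amygdala and -0.25 between regions. With the covariate, mir-129-2 had 0.016 in N(EvC), amygdala. Without the 13 amygdala libraries, likewise chosen, the log2 ratio of mir-129-1 to mir-129-2 had 0.094 in C(SvN), amygdala and -0.25 between regions. Without them, miR-129-2-3p had -0.011 in N(EvC) minus S(EvC), amygdala and 0.13 between regions. Without them, miR-129-5p had -0.35 in C(SvN), amygdala, -0.11 in E(SvN), amygdala, -0.24 in N(EvC) minus S(EvC), amygdala, 0.073 in S(EvC), amygdala and -0.0054 between regions. Without them, mir-129-1 had -0.11 in C(SvN), amygdala and -0.16 between regions. Without them, mir-129-2 had -0.21 in C(SvN), amygdala, -0.13 in N(EvC) minus S(EvC), amygdala, 0.037 in S(EvC), amygdala and 0.11 between regions. Without them 2 pairs of arms passed between regions and 2 names in C(SvN), amygdala, and a pseudocount of 0.1 RPM gave 1 name in E(SvN), amygdala.

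Leaving out 1 library at a time moved these values over the ranges given. The log2 ratio of mir-129-1 to mir-129-2 ran from -0.11 to 0.056 in C(SvN), amygdala, -0.027 to 0.12 in E(SvN), ventral striatum, -0.078 to 0.065 in N(EvC), ventral striatum and -0.26 to -0.22 between regions. miR-129-2-3p ran from -0.031 to 0.15 in C(SvN), amygdala, -0.036 to 0.067 in C(SvN), ventral striatum, -0.15 to 0.23 in E(SvN), amygdala, -0.18 to 0.20 in N(EvC) minus S(EvC), amygdala and -0.013 to 0.042 in female minus male, ventral striatum. The log2 ratio of the arms ran from -0.12 to 0.059 in C(SvN), amygdala, -0.049 to 0.13 in C(SvN), ventral striatum, -0.12 to 0.089 in E(SvN), amygdala, -0.024 to 0.14 in E(SvN), ventral striatum, -0.11 to 0.10 in the region difference of N(EvC), -0.12 to 0.088 in N(EvC) minus S(EvC), amygdala, -0.10 to 0.092 in N(EvC) minus S(EvC), ventral striatum, -0.12 to 0.080 in N(EvC), amygdala, -0.11 to 0.056 in N(EvC), ventral striatum, -0.099 to 0.082 in S(EvC), amygdala, -0.10 to 0.059 in S(EvC), ventral striatum, -0.012 to 0.092 in female minus male, amygdala and -0.055 to 0.031 in female minus male, ventral striatum. miR-129-5p ran from -0.076 to 0.11 in C(SvN), amygdala, -0.061 to 0.15 in C(SvN), ventral striatum, -0.083 to 0.17 in E(SvN), amygdala, -0.15 to 0.10 in N(EvC) minus S(EvC), amygdala, -0.016 to 0.20 in N(EvC), ventral striatum, -0.30 to -0.23 between regions and -0.044 to 0.064 in female minus male, ventral striatum. mir-129-1 ran from -0.12 to 0.083 in C(SvN), amygdala, -0.16 to 0.069 in C(SvN), ventral striatum, -0.061 to 0.22 in E(SvN), amygdala, -0.22 to 0.024 in E(SvN), ventral striatum, -0.21 to 0.073 in N(EvC) minus S(EvC), amygdala, -0.085 to 0.19 in N(EvC) minus S(EvC), ventral striatum, -0.0066 to 0.24 in N(EvC), ventral striatum, -0.053 to 0.18 in S(EvC), ventral striatum and -0.074 to 0.062 in female minus male, ventral striatum. mir-129-2 ran from -0.040 to 0.14 in C(SvN), amygdala, -0.017 to 0.13 in C(SvN), ventral striatum, -0.14 to 0.16 in E(SvN), amygdala, -0.13 to 0.16 in N(EvC) minus S(EvC), amygdala and -0.20 to -0.12 between regions. The number of names past an adjusted p of 0.05 was 0 to 1 in E(SvN), amygdala, E(SvN), ventral striatum, N(EvC) minus S(EvC), amygdala, N(EvC) minus S(EvC), ventral striatum, N(EvC), amygdala, N(EvC), ventral striatum, S(EvC), ventral striatum, female minus male, amygdala and female minus male, ventral striatum. The region call of miR-129-5p was lost without 1 library in 11 of 48 fits (limma adjusted p up to 0.0552), and mir-129-2 passed without replicate 3 of the female ethanol-exposed non-enriched amygdala pools (limma adjusted p = 0.0444).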
